A study of Mus musculus with 4 samples.

Results

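Primordial germ cells, the embryonic forerunners of eggs and sperm, were found among sorted cells of the mouse aorta-gonad-mesonephros (AGM) region, the part of the trunk that holds the dorsal aorta and the early gonad and kidney tissue. A kept cell was taken as a germ cell when at least 3 of the 5 genes Dppa3, Dppa5a, Pou5f1, Dnd1 and Rhox6 had at least 1 UMI; a UMI is a tag that marks 1 captured RNA molecule. By this rule 479 of 20836 kept cells were germ cells, and the other 20357 are called other kept cells below. All cells came from embryos at embryonic day 10.5 and were sorted for CD31, a surface protein of endothelium, and against CD45, a surface protein of blood cells. The 2 wild-type (WT) libraries are compared with 2 libraries of the mir-223 -/- genotype (KO), which lacks the microRNA miR-223. The labels name neither the strain, the size of the deletion nor the number of embryos in a library, nor whether libraries came from separate litters, so a p-value here reflects no more than the variation among these 4 libraries, some of which may be technical.

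Primordial germ cells arise outside the future gonad, pass through the hindgut and its mesentery, and reach the genital ridges at about the stage sampled here. They keep a network of pluripotency factors (Pou5f1, Sox2, Nanog), are guided and kept alive by ligands of their surroundings such as Kit ligand and Cxcl12, and erase much of their DNA methylation. CD31 (Pecam1) is carried by early germ cells as well as by endothelium. miR-223 is best known from myeloid blood cells, and no role of it in germ cells is assumed here.

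The sequences behind the comparisons are as follows. The mature microRNA absent from the KO genotype lies on the plus strand at chrX:96242884-96242905 (GRCm38.p6, RefSeq), and its seed, bases 2 to 8, is in capitals.
miR-223-3p: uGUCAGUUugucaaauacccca

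Promoters are shown for 3 of the germline genes that were lowest in the same KO library. These genes are Ddx4, an RNA helicase of germ cells, Hormad1, a meiotic chromosome axis protein, and Slc25a31, a germline ADP/ATP carrier. Each promoter is the 250 bases upstream of the RefSeq start (GRCm38.p6), 5′ to 3′ on the strand of the gene. Capitals mark CACGTG, the E-box, and TCCCGC, a core of the E2F motif, on either strand; both are bound by subunits of a repressor complex known to silence germline genes in somatic cells. They lie at chr13:112652311-112652560 (minus strand), chr3:95559427-95559676 (plus) and chr3:40708621-40708870 (plus).
Ddx4: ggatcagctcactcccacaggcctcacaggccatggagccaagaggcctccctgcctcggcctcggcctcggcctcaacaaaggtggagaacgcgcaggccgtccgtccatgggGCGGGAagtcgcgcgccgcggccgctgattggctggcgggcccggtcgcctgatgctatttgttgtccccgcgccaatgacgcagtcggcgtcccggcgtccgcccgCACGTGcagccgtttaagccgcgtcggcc
Hormad1: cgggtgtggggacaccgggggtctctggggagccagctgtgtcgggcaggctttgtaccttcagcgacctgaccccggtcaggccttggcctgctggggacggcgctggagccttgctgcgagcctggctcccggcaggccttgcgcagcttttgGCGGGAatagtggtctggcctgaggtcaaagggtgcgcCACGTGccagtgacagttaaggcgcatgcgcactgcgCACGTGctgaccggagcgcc
Slc25a31: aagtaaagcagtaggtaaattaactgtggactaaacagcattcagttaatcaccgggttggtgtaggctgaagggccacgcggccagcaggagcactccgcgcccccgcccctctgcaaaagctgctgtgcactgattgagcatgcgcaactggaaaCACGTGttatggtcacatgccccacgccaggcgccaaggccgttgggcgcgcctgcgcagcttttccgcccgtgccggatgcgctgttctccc

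In the printed windows the E-box began 29 bases upstream of the start in Ddx4, 57 and 20 bases upstream in Hormad1 and 93 bases upstream in Slc25a31. The E2F core began 136 bases upstream in Ddx4 and 95 bases upstream in Hormad1, on the minus strand of each gene, and no E2F match overlapped an E-box. Of 32851 windows of this length in the table, 6.02% held CACGTG, 16.9% held TCCCGC and 1.45% held both. Of the 18 genes of a list of germline RNA and transposon control, 17 had a window, and 7 of these (41.2%) held CACGTG and 5 (29.4%) held TCCCGC. Of the 15 genes of a list of meiosis, 14 had a window, and 6 (42.9%) held each motif. The same shares over all 27025 genes with a window were 6.86% and 18.8%. The median number of CpG pairs per window was 19 in the first list, 14 in the second and 6 over all genes. These are descriptions of letters and show neither binding nor methylation.

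Values for the 4 libraries are given throughout in the order WT replicate 1, WT replicate 2, KO replicate 1, KO replicate 2. The libraries held 95158639, 181682389, 109713066 and 167542930 UMIs, of which germ cells gave 3072119, 6850704, 3335687 and 7490156. The median germ cell had 57929, 42349.5, 36472 and 42717 UMIs, against 30391, 18739, 20382 and 19207 in the other kept cells. Germ cells were thus the deeper class in each library. Between 8 and 28 cell barcodes were shared by a pair of libraries, and none was a germ cell in both. KO replicate 1 stood apart in sex: Xist, the RNA that coats the inactive X chromosome of female cells, had 1 UMI in its 4265 other kept cells, whereas in the other 3 libraries Xist was common in cells without Y-linked RNA. Results that turn on KO replicate 1 are given with that in view.

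The number of rule genes per cell is given as a description of the choice of cells. No rule gene was detected in 18523 kept cells, 1 in 1765 and 2 in 69; 3 were detected in 8 cells, 4 in 16 and all 5 in 455. The cells just outside the limit, with 2 rule genes, had a median of 0.335 to 0.763 rule-gene UMIs per 10000 and 34.9 to 43.0 UMIs per 10000 of 10 endothelial genes. The cells just inside it, with 3, had medians of 9.38 to 22.5 rule-gene UMIs per 10000 in the 3 libraries that held any. Those cells were shallow in 2 libraries, with median depths of 3114 UMIs in WT replicate 2 and 4266 in KO replicate 1, against 18051 in KO replicate 2. Their endothelial medians were 4.08 and 7.03 UMIs per 10000 in the first pair and 29.6 in KO replicate 2, near the cells outside the limit. Cells with all 5 rule genes had endothelial medians of 1.51 to 2.03.

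**Figure D1:**
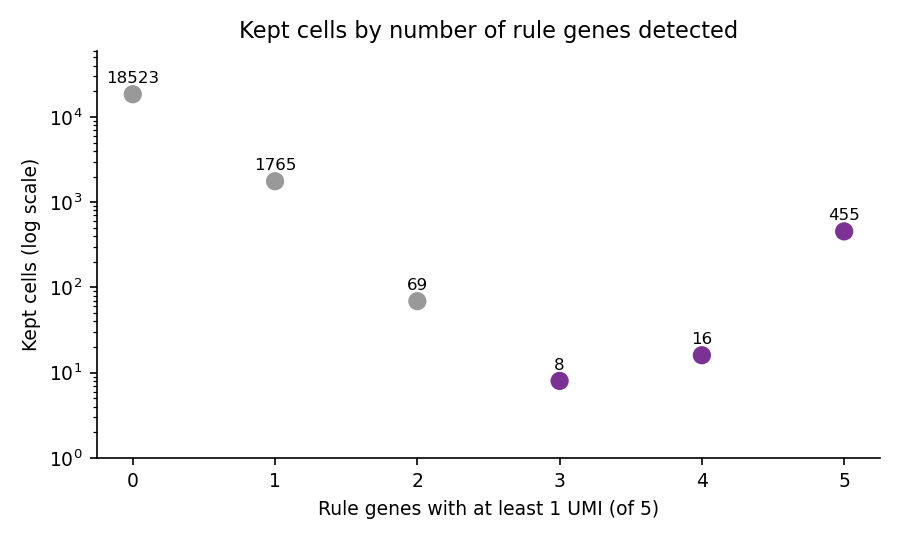
Kept cells (log scale) against the number of the 5 rule genes with at least 1 UMI, over all 4 libraries; purple points are germ cells by the rule, grey points other kept cells. The counts fall to 8 cells at 3 genes and rise again to 455 at 5.

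The rule genes themselves, whose levels are given as a description, were high in every library. Dppa3 (Stella), which protects DNA methylation in the fertilised egg and marks early germ cells, had 1038, 1135, 1032 and 1005 CPM (UMIs summed over the class and scaled to a total of 1000000) in germ cells and at most 0.671 in other kept cells. Pou5f1 (Oct4), the central pluripotency factor, had 339, 343, 337 and 319 CPM. These levels differed little between libraries. Dppa5a, an RNA-binding pluripotency protein, was less even, with 2237, 3236, 1628 and 2488 CPM, lowest in KO replicate 1. Dnd1, an RNA-binding protein needed for germ cell survival, had 233, 209, 294 and 214 CPM, and Rhox6, a homeobox gene of the X-linked reproductive cluster, had 539, 550.3, 544 and 517 CPM. A UMI of each rule gene was found in 94.8% to 100% of germ cells of each library. The same share in other kept cells was 0.539% to 4.85%, where the rule itself allows at most 2 of the genes in a cell.

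Utf1 and Rhox9 were outside the rule but among the markers that named the class, so their levels are a description and no separate support. Utf1, a chromatin factor of pluripotent cells, had 499, 472, 432 and 449.9 CPM in germ cells and at most 0.361 in other kept cells, and Rhox9, a neighbour of Rhox6, had 679, 653, 604 and 701 against at most 0.481. Outside the rule genes, the 20 genes at 50 CPM or more with the largest fold in their least favourable library included Rhox9, Utf1, Tdh, L1td1, Rbmxl2, Dppa4, BC048679, Fkbp6, Morc1, Rhox5, Phlda2, Tfap2c, Alpl, Nanog, Tcl1, Ifitm1, Tex19.1, Zfp42 and Fbxo15. Tcl1 and L1td1 are genes of pluripotent cells, and Fkbp6, Morc1 and Tex19.1 act in transposon silencing in the germline. The smallest log2 fold of the 20 over the 4 libraries ran from 8.71 for Rhox9 to 5.68 for Fbxo15; folds here and below are of CPM + 1, which understates them where the other cells are near 0. Of 8677 genes with a mean of at least 10 CPM in either class, 1079 (12.4%) were at least 2-fold higher in germ cells in all 4 libraries and 1667 (19.2%) at least 2-fold lower. The 10 lowest, Hba-x, Hbb-bh1, Gap43, Gngt2, Hbb-y, Igf1, Fam167b, Clec14a, Sh3bp5 and Cavin3, include 3 globins and the endothelial receptor Clec14a; their log2 fold in the least favourable library ran from -3.69 to -3.34. A gene that reached 10 CPM through 1 class alone was bound to have the higher mean there, though not by 2-fold in each library. The counts by list below are therefore no support for that direction. Since the cells were chosen by expression, these counts and every level of germ cells beside other cells carry no test.

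**Figure D2:**
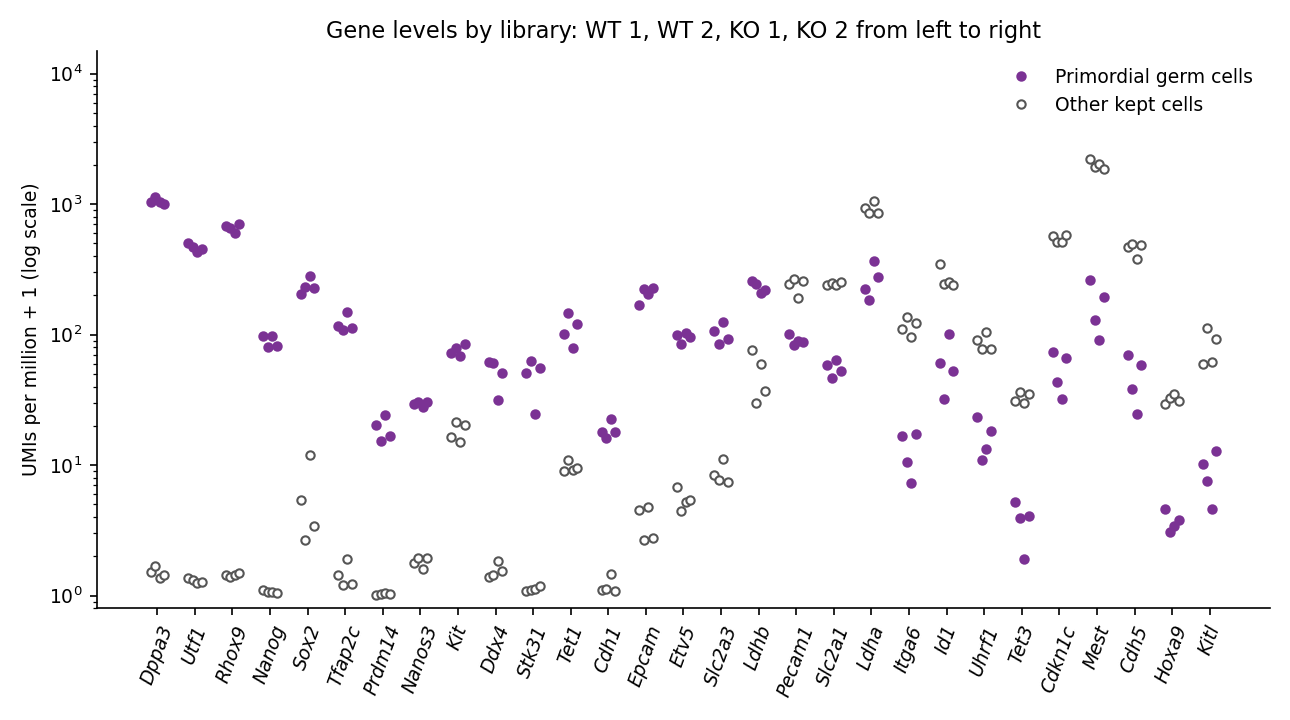
CPM + 1 (log scale) of 29 genes in germ cells (filled) and other kept cells (open), 4 points per class and gene for WT replicates 1 and 2 and KO replicates 1 and 2. Germ cells are the higher class from Dppa3 to Ldhb and the lower class from Pecam1 to Kitl in each library.

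RNA of other cell types was present at low level. The summed CPM of 10 endothelial genes (Cdh5, Kdr, Tek, Emcn, Egfl7, Flt1, Tie1, Esam, Cldn5 and Sox17) was 568, 306, 242 and 459 in germ cells, which is 14.9%, 7.64%, 7.06% and 11.2% of that in other kept cells. This RNA was unevenly spread: 4, 14, 4 and 20 germ cells exceeded 0.25 of the median level of cells with endothelial genes, a limit set after seeing the data. The median germ cell lay at 3.63% to 4.45% of that level. At least 3 of the first 5 of these genes had a UMI in 42 of 49, 85 of 164, 31 of 92 and 94 of 174 germ cells. Without the 4, 14, 5 and 21 germ cells over this limit or a like limit on blood RNA, the summed endothelial level was 6.69%, 4.59%, 5.26% and 4.51% of that in other kept cells. Hbb-y, an embryonic globin, had 106, 11.1, 437 and 13.2 CPM in germ cells and 5717, 629, 4955 and 924 in other kept cells. In KO replicate 1, 1151 of the 1458 Hbb-y UMIs were in 1 germ cell, and the next highest cell held 8. Of 7 blood and macrophage genes, Ptprc, which encodes CD45, was not detected in a germ cell, and Csf1r had 0.146 CPM in WT replicate 2 and 0 elsewhere. A count of 0 over all germ cells allows up to 0.145 CPM. The 7 genes together had 8.39 to 18.3 CPM. Mesenchymal, neuronal and gut genes stood at sums of 4.09 to 33.6 CPM in germ cells, at most 38.4% of those in other kept cells. Coelomic and nephric genes were low in both classes, at 8.69 to 26.4 CPM in germ cells and 10.04 to 19 in other kept cells. Among their genes Dcn, Pax2, Neurog2 and Shh were at 0 in germ cells. Of the 6 gut genes 2 reached 10 CPM in either class: Cdx2, which was at least 2-fold higher in germ cells in every library, and Sox17, which was lower. Whether the remaining endothelial RNA came from cells caught together or from free RNA was not tested.

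Genes that specify germ cells were well detected. Their summed level, over 10 genes, was 2460, 2728, 3362 and 2447 CPM in germ cells and 149 to 192 in other kept cells, and 9 of the 10 were at least 2-fold higher in germ cells in every library. Prdm1 (Blimp1), the repressor that starts the germline programme, had 39.4, 43.5, 45.0 and 44.3 CPM against 6.92 to 14.0 in other kept cells, the smallest contrast of the 9. Its partners stood out more: Tfap2c had 115, 108, 149 and 111 CPM against at most 0.905, and Prdm14, which holds down DNA methylation genes, had 19.2, 14.3, 23.1 and 15.8 against at most 0.0520. Nanos3, an RNA-binding protein that protects migrating germ cells, had 28.3, 29.3, 26.7 and 29.5 CPM. The surface genes Alpl, the alkaline phosphatase long used to stain these cells, and Ifitm1 were also high, with 126 to 187 and 906 to 1286 CPM. Lin28a, which blocks maturation of let-7 microRNAs, had 36.1 to 47.4 CPM, whereas its paralogue Lin28b was not at least 2-fold apart, at 14.0 to 20.7 CPM in germ cells and 21.6 to 31.0 in other kept cells.

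Of 21 pluripotency genes, 18 reached 10 CPM in either class, most of them through germ cells, and 16 were at least 2-fold higher there in every library. The list summed to 2773, 2724, 3000 and 2665 CPM in germ cells and 361 to 403 in other kept cells. Nanog had 96.7, 79.7, 95.9 and 80.8 CPM against at most 0.0996 in other kept cells. Sox2, the partner of Pou5f1, had 204, 229, 280.3 and 228, and Sall4, a zinc finger protein of the same network, had 214, 220.3, 273 and 218. Both were highest in KO replicate 1, and so they were in its other kept cells, with 11.1 and 13.3 CPM there against at most 4.43 and 6.37 in the other libraries. Tdh, a threonine dehydrogenase of mouse embryonic stem cells, had 328 to 451 CPM, and Esrrb, a nuclear receptor of the naive state, was level at 31.2 to 32.7. The exceptions were Klf4, lower in germ cells at 5.40 to 19.9 CPM against 30.9 to 52.8, and Klf2, which was less than 2-fold apart. Fgf4, a ligand of the pluripotent epiblast, had no UMI in germ cells, and Otx2, a gene of the primed state, had at most 1.60 CPM. The germ cells thus carried the network with Klf5 (63.0 to 91.7 CPM) and without much Klf4.

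Later germline genes were partly on. Of 18 genes of germline RNA and transposon control, 11 reached 10 CPM, each through germ cells alone, which fixes the higher mean there. The list summed to 421, 446, 316 and 447 CPM in germ cells and to 10.5 to 20.1 in other kept cells. Ddx4 (Vasa) had 61.2, 60.1, 30.3 and 50.2 CPM, and Dazl, an RNA-binding protein that licenses germ cells for sexual differentiation, had 16.9, 11.7, 6.90 and 21.6. Elavl2, an RNA-binding protein, was steadier, at 98.3 to 114 CPM. Nanos2, of the male germline, had no UMI. Of 15 meiosis genes 4 reached 10 CPM, Syce1, Hormad1, Smc1b and Slc25a31, again through germ cells alone, and the list summed to 154, 153, 68.1 and 144 CPM against 2.75 to 4.29; Stra8, the gene that meiotic entry needs, had no UMI in a germ cell.

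After each cell was thinned to 10000 UMIs, Ddx4 was found in 33.3%, 42.6%, 24.4% and 37.4% of 48, 155, 90 and 163 germ cells, and 1, 9, 2 and 11 shallower cells were left out. Without thinning these shares were 81.6%, 68.3%, 50% and 71.3%. Nanog was found in 60.4%, 52.9%, 62.2% and 50.9% of thinned germ cells, and in at most 0.102% of other kept cells of a library. A gene at this level is missed in many cells at this depth, so these shares are no count of cells that express it.

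Genes of DNA methylation pointed in more than one direction. Uhrf1, which brings the maintenance enzyme to replicating DNA, had 22.5, 9.93, 12.3 and 17.4 CPM in germ cells against 77.1 to 103 in other kept cells. Dnmt1, the maintenance enzyme itself, was not lower, with 152 to 180.4 CPM against 106 to 127. Dnmt3b, a de novo enzyme, had 1.20 to 3.26 CPM against 15.8 to 18.6. Among the dioxygenases that oxidise methylcytosine, Tet1 was 8.75- to 13.3-fold higher in germ cells, Tet3 was 5.93- to 15.7-fold lower, and Tet2 was not apart. Among the 12 genes of histone modification 3 were higher in every library (Eed, Kdm3a and Setdb1) and 2 lower; Ehmt1, which with its partner Ehmt2 methylates histone H3 lysine 9, had 17.4 to 26.1 CPM against 60.9 to 74.7. Ezh2, the Polycomb methyltransferase, was at 212 to 279 CPM and less than 2-fold apart.

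Receptors and adhesion genes set the germ cells apart from the endothelium they were sorted with. Kit, the receptor of Kit ligand, had 71.3, 78.5, 67.5 and 83.0 CPM in germ cells and 13.9 to 20.5 in other kept cells, while its ligand Kitl had 3.6 to 11.9 in germ cells and 58.3 to 112 in other kept cells. Cxcr4, the receptor of Cxcl12, was low in both classes, at 8.68 to 14.3 and 5.84 to 10.2 CPM. Cxcl12 itself had at most 2.40 CPM in germ cells and 7.88 to 17.8 in other kept cells. Receptor and ligand were thus highest in opposite classes for Kit. The epithelial adhesion genes Cdh1 (15.2 to 21.6 CPM), Cdh3 and Epcam (167 to 229 CPM) were at least 2-fold higher in germ cells in every library, whereas Cdh2 and the integrins Itgb1, Itga5 and Itga6 were lower. Pecam1, the gene of the sort antigen CD31, had 99.6, 81.6, 88.1 and 86.6 CPM in germ cells and 242, 268, 189 and 258 in other kept cells; without the cells of high endothelial or blood RNA its mean in germ cells was 78.8 CPM.

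Of 16 genes of BMP, Nodal and FGF signalling 15 reached 10 CPM, and 5 were higher in germ cells in every library and 3 lower. Id1 and Id2, targets of BMP signalling, were lower, with 31.2 to 100.4 and 17.8 to 51.6 CPM against 237 to 349 and 107 to 163. The FGF-responsive factors Etv4 and Etv5 were higher, Etv5 at 83.6 to 102 CPM against 3.44 to 5.75, although Dusp6, another FGF-responsive gene, was not. Nodal, a TGF-beta family ligand, had 24.1, 20.9, 14.1 and 16.3 CPM in germ cells, and its antagonist Lefty2 had 55.7, 50.8, 1.80 and 29.4 against at most 0.0383 in other kept cells. Of 7 survival genes at 10 CPM or more none was higher and 2 were lower, Bcl2, an inhibitor of cell death, and Bak1, one of its opponents. Bax, the other main pore former, was at 359.7 to 413 CPM in germ cells and 239 to 262 in other kept cells.

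Of 16 glycolysis genes 9 were not 2-fold apart, 3 were higher in germ cells in every library and 4 lower. Pairs of related genes on opposite sides were as follows. The glucose transporter Slc2a3 had 84.2 to 124 CPM against 6.47 to 10.2, and Slc2a1 had 45.5 to 63.3 against 238 to 253. The lactate dehydrogenase subunit Ldhb was 3.38- to 8.19-fold higher and Ldha 2.90- to 4.66-fold lower. Likewise the phosphofructokinase gene Pfkp was higher and Pfkl lower in every library. None of 17 genes of oxidative phosphorylation was 2-fold apart. Of 20 S phase genes 1 was higher (Cdc45) and 2 lower (Gins2 and Uhrf1), and of 20 G2 and mitosis genes 5 were higher (Top2a, Ccnb1, Bub1, Bub1b and Cenpf) and none lower. Cdkn1c, an imprinted inhibitor of the cell cycle, had 31.2 to 72.9 CPM against 509 to 584. Detected genes per cell thinned to 10000 UMIs had medians of 3034, 2999, 2952.5 and 2974 in germ cells and 3099.5, 3049, 3071 and 3035 in other kept cells; the unthinned medians were 6867, 5947.5, 5553.5 and 5963 against 5348.5, 4225, 4420 and 4261.

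Many imprinted genes, which are expressed from 1 parental copy, were low. Of 20 imprinted genes at 10 CPM or more, 13 were at least 2-fold lower in germ cells in every library and 2 higher. H19, Mest and Gnas had 42.6 to 97.3, 89.3 to 259 and 161 to 404 CPM against 407 to 575, 1873 to 2212 and 1987 to 2828. The values moved with endothelial RNA: without the cells of high endothelial or blood RNA the means over the 4 libraries were 42.3, 80.3 and 151 CPM. The higher pair was Snrpn and Phlda2, a growth-restraining gene of the placenta, which had 165, 173, 432 and 249 CPM in germ cells and at most 1.31 in other kept cells. The 38 Hox genes, which give body position, summed to 44.3, 27.9, 21.3 and 39.1 CPM in germ cells against 335 to 477 in other kept cells; 14 reached 10 CPM, each through the other kept cells alone. Cdx2, a caudal homeobox gene that acts upstream of Hox genes, went the other way with 8.79, 10.2, 24.6 and 13.6 CPM against at most 0.0894. Of 32 Rhox genes 6 reached 10 CPM, each through germ cells alone, and the family summed to 2082, 1949, 1916 and 2026 CPM against at least 4.61 and under 8.0 in other kept cells; Rhox5 had 765, 657, 684 and 713 CPM. Reads of the near-identical Rhox2, Rhox3 and Rhox4 copies may be split or lost, and 9 Rhox genes had no UMI.

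With the rule and filters used here, the share of germ cells among kept cells did not separate the genotypes. In WT, 49 of 2381 cells (2.06%, exact 95% interval 1.53% to 2.71%) and 164 of 7650 (2.14%, 1.83% to 2.49%) were germ cells. In KO, 92 of 4357 (2.11%, 1.71% to 2.58%) and 174 of 6448 (2.70%, 2.32% to 3.12%) were. The genotypes overlapped: the mean share was 2.10% ± 0.0607 (SD, n = 2) in WT and 2.41% ± 0.415 (SD, n = 2) in KO, a two-sided exact permutation p of 0.667. The smallest p that 2 libraries against 2 can give is 0.33. The intervals cover counting error only, and the sort and the filters set these shares in part.

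For KO against WT within germ cells, 10874 genes were tested on UMI sums per library with the quasi-likelihood test of edgeR, and 9 of them (0.0828%) passed an adjusted p of 0.05, 4 higher and 5 lower in KO; 242 had an unadjusted p under 0.05. The called genes were of varied function, and none was in the gene lists. Of the 9, 3 lie on chromosome 17 (Npw, Gng13 and Rnaset2b). Fam81a and Cgnl1 both lie on chromosome 9. Their positions are given below. The labels name no strain, and what this placement reflects was not tested. Wdfy1, an adaptor of Toll-like receptor signalling (chr1:79702262-79776143), had 6.18, 5.25, 27.9 and 28.6 CPM in germ cells, a rise of 2.38 (log2, SE 0.24, adjusted p = 0.00218). Mettl23, a methyltransferase gene (chr11:116843278-116854263), had 124.7, 134, 43.5 and 41.0 CPM, a change of -1.56 (SE 0.16, adjusted p = 0.00218). For Wdfy1 and Mettl23 the libraries of a genotype lay close together. No KO library overlapped a WT library for any of the 9 genes. They were chosen by the test on these same libraries, so this is a description and no separate support. Of 8905 genes with a mean of at least 5 CPM, 18.3% had both KO libraries below both WT libraries and 9.11% above.

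Cgnl1, which encodes the junction protein paracingulin (chr9:71626509-71771602), had 38.4, 44.7, 7.79 and 12.1 CPM in germ cells, a change of -1.96 (SE 0.23, adjusted p = 0.00463). Without the germ cells of high endothelial or blood RNA the change was -2.78. Ide, the insulin-degrading enzyme (chr19:37268743-37337852), had 119, 124, 62.4 and 60.9 CPM, a change of -0.93 (SE 0.15, adjusted p = 0.0493). Gng13, a G protein gamma subunit (chr17:25717171-25719406), had 45, 140, 1 and 17 UMIs, or 14.6, 20.4, 0.300 and 2.27 CPM, a change of -3.43 (SE 0.47, adjusted p = 0.0179), and of -5.70 without KO replicate 2. These 3 genes were low in both KO libraries. Rnaset2b, a ribonuclease (chr17:6970634-7011299), had 42, 89, 2 and 7 UMIs, or 13.7, 13, 0.600 and 0.935 CPM, a change of -3.93 (SE 0.42, adjusted p = 0.00248). Its near-identical copy Rnaset2a had 6.18, 5.25, 11.7 and 15.2 CPM (1.33, SE 0.29, adjusted p = 0.391), so how reads were split between the copies is uncertain.

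The other 3 genes were higher in KO germ cells. Fam81a (chr9:70088511-70142560) had 3.58, 4.96, 20.7 and 22.8 CPM, a rise of 2.34 (SE 0.28, adjusted p = 0.00488). Npw, which encodes the peptide ligand neuropeptide W (chr17:24657330-24658457), had 3, 4, 32 and 72 UMIs, or 0.977, 0.584, 9.59 and 9.61 CPM, a rise of 3.75 (SE 0.48, adjusted p = 0.00778). Gm48170, a long noncoding RNA gene (chr13:65615824-65620243), had 2.60, 2.63, 13.2 and 11.7 CPM, a rise of 2.28 (SE 0.34, adjusted p = 0.0316). No UMI of it was found in other kept cells. Mettl23 overlaps Mfsd11 on its own strand and Jmjd6 and Srsf2 on the other, Wdfy1 overlaps Mrpl44 and Gng13 overlaps Chtf18; none of these neighbours was called, and whether counting used strand is not stated. The calls depend on which libraries enter. With any 1 library left out, 1 genotype has a single library, so the spread is measured in the other pair only. All 9 genes kept their direction in these fits. Without WT replicate 2 the change was 2.29 for Wdfy1, -1.46 for Mettl23, -3.93 for Rnaset2b and 3.36 for Npw.

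**Figure D3:**
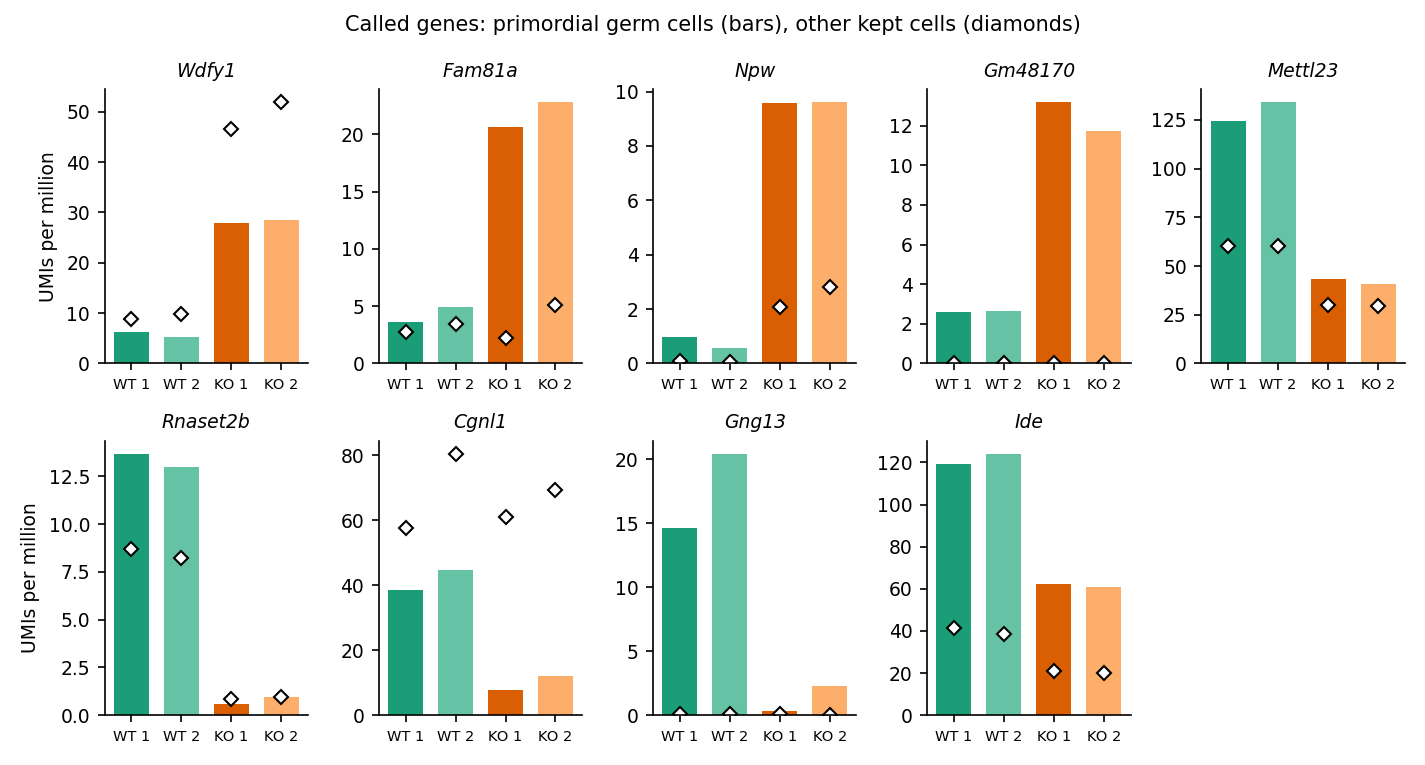
CPM of the 9 called genes in germ cells (bars, WT replicates 1 and 2, then KO replicates 1 and 2) and in other kept cells (open diamonds). The KO bars lie beyond both WT bars for each gene, and for Cgnl1 the diamonds show no matching step.

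Most of these differences had a counterpart in the other kept cells of the same libraries, where none of 16053 genes (0%) passed with edgeR and 160 had an unadjusted p under 0.05. The KO minus WT difference there was 2.41 (log2, SE 0.15) for Wdfy1, -3.25 (SE 0.21) for Rnaset2b, 4.97 (SE 0.40) for Npw, -1.02 (SE 0.11) for Mettl23 and -0.95 (SE 0.12) for Ide. It was 0.26 (SE 0.44) for Fam81a, -0.53 (SE 0.63) for Gng13 and -0.08 (SE 0.21) for Cgnl1. The test of the difference between the classes, over 15929 genes, called 2 (0.0126%), 1 in each direction. Cgnl1 differed by -1.88 between germ cells and other kept cells (log2, SE 0.21, adjusted p = 0.00116), and by -2.70 without the germ cells of high endothelial or blood RNA; other kept cells had 57.7, 80.5, 60.9 and 69.4 CPM. By this test the KO difference of Cgnl1 in germ cells thus departed from that in the pooled other kept cells. Of those 20357 cells 18276 held at least 3 of 5 endothelial genes, and cell types other than endothelium were not tested singly. For Fam81a the interaction was 2.20 (SE 0.42, adjusted p = 0.293).

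The second call, Hba-a1, an alpha globin gene, was 2.78 higher (SE 0.24, adjusted p = 8.1e-05), from 29, 7, 181 and 94 UMIs in germ cells. One germ cell held 150 of the 181 UMIs in KO replicate 1 and another 81 of the 94 in KO replicate 2. Without the cells of high endothelial or blood RNA the value was 0.30 and Hba-a1 was not called. Its near-identical copy Hba-a2 had 18, 8, 70 and 27 UMIs. Among higher genes, Hba-a2 and Ldha had the next smallest p, with Ldha at 222, 183, 363 and 277 CPM in germ cells and an interaction of 0.63 (SE 0.11, adjusted p = 0.123). Among lower genes, these were Ccng1 at -0.84 (SE 0.20) and Lhx1os at -4.08 (SE 0.97), both with an adjusted p of 1.

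None of the gene lists held a called gene in KO against WT germ cells. Over all tested genes the median log2 difference was 0.01, with 5629 of 10874 estimates above 0. All 10 germ cell specification genes had estimates above 0, with a median of 0.24, led by Lin28b at 0.50 (SE 0.23). Of 19 pluripotency genes 11 lay above 0 (median 0.07). Of 14 genes of germline RNA and transposon control 6 lay above 0 (median -0.07), and of 10 meiosis genes 1 did (median -0.33). Of 20 G2 and mitosis genes 2 lay above 0 (median -0.17), and of 20 S phase genes 16 did (median 0.09). Of 16 glycolysis genes 14 lay above 0, with a median of 0.21. These are signs of estimates, and no gene among them passed the test. Among 8905 genes with a mean of at least 5 CPM, both KO libraries lay below both WT libraries for 18.3% and above for 9.11%; the G2 and mitosis list had 8 of 20 below and none above, and the specification list none of 10 below and 3 above.

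The KO libraries differed from each other in germline and signalling genes, with KO replicate 1 the outlying one. Lefty1, like Lefty2 a Nodal antagonist, had 34.5, 31.1, 0.899 and 13.8 CPM. After thinning to 10000 UMIs a Lefty2 UMI was found in 41.7%, 32.3%, 2.22% (exact 95% interval 0.270% to 7.80%) and 17.8% of germ cells, and in at most 0.0509% of other kept cells. Without thinning these shares were 69.4%, 56.1%, 5.43% and 39.7%. Both WT libraries were above both KO libraries, but the KO libraries differed so widely that the test gave -1.87 (SE 0.90) for Lefty1 and -1.52 (SE 1.13) for Lefty2, each with an adjusted p of 0.999.

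The germline genes with printed promoters were picked among those lowest in KO replicate 1, so their place there is a description. Hormad1 had 24.4, 23.5, 4.20 and 16.2 CPM, Slc25a31 had 17.9, 13.6, 4.8 and 17.4, and Ddx4 had 61.2, 60.1, 30.3 and 50.2. Smc1b, a meiotic cohesin subunit, had 49.5, 61.6, 23.1 and 53.4 CPM, and Stk31, a germline kinase, had 49.5, 61.7, 23.7 and 54.5. The promoter window of Stk31 held an E-box alone and that of Smc1b an E2F core alone. Dazl, also lowest in KO replicate 1, held neither in its window. Whether these motifs bear on the levels in that library was not tested. KO replicate 1 was the lowest library for 10 of the 11 genes of germline RNA and transposon control at 5 CPM or more and for 5 of the 5 meiosis genes. Over all 8905 genes of that level it was the lowest for 36.0%. It was the highest library for 8 of 10 specification genes, against 21.1% over all genes. Phlda2 and Cdx2, with the values given above, were highest there too. KO replicate 1 is also the library without Xist, and its germ cells were the shallowest. Genotype, embryo stage and library cannot be told apart for these genes. Germ cells with a Y-linked UMI numbered 33, 124, 90 and 102, but levels of these genes in them alone are not given. Whether sex bears on these levels was not tested.

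**Figure D4:**
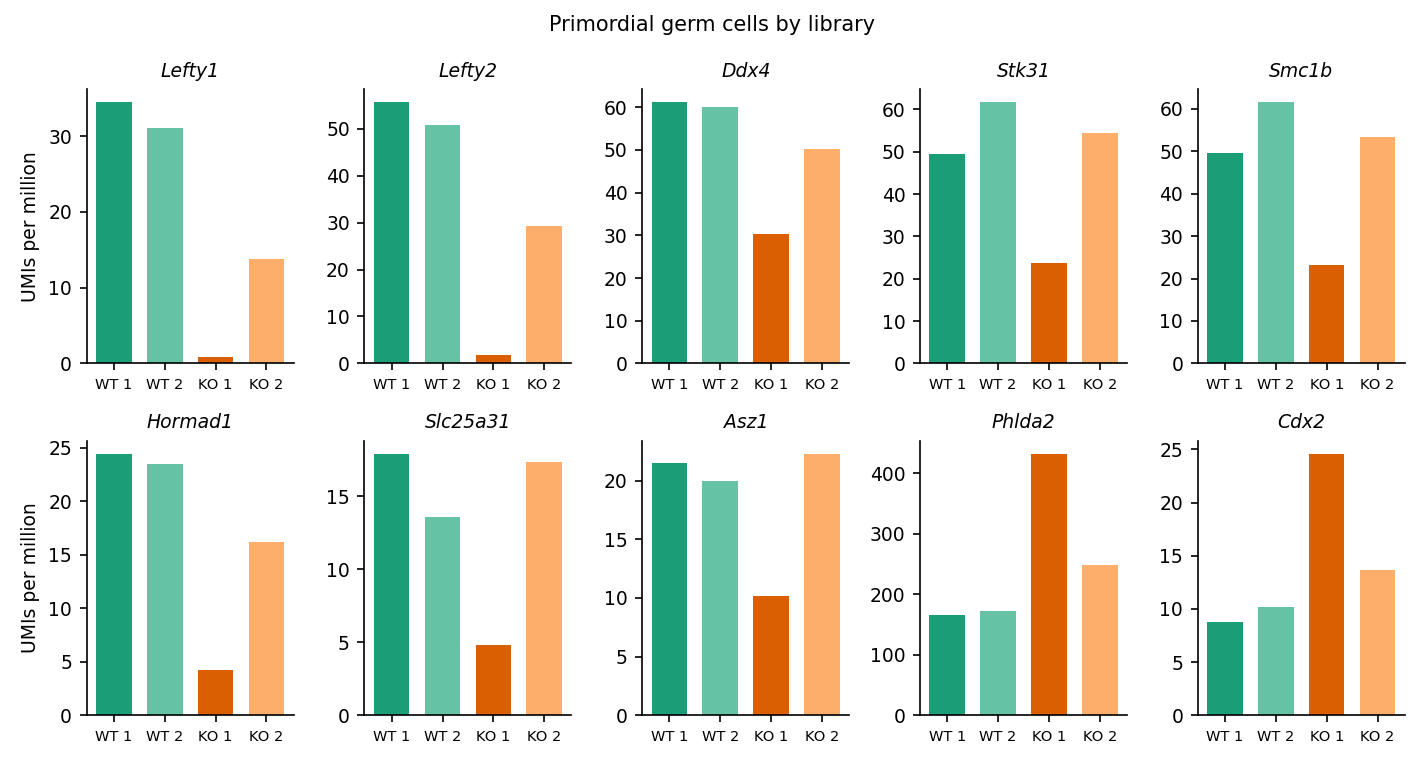
CPM in germ cells for 10 genes, 1 bar for each library. KO replicate 1 is the lowest bar for Lefty1 to Asz1 and the highest for Phlda2 and Cdx2.

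Xist was scarce in germ cells without Y-linked RNA. Such cells, with no UMI of Ddx3y, Uty, Kdm5d or Eif2s3y, numbered 16 of 49, 40 of 164, 2 of 92 and 72 of 174; in KO replicate 1, where Xist is nearly absent, 2 cells were without. A Xist UMI was found in 25% (7.27% to 52.4%), 40% (24.9% to 56.7%) and 33.3% (22.7% to 45.4%) of them in WT replicates 1 and 2 and KO replicate 2. Germ cells with Y-linked RNA, which should lack Xist, gave 30.3%, 20.2% and 29.4% there. The mean difference of the shares was 6.15 percentage points ± 12.7 (SD, n = 3 libraries), less than the spread between libraries. In CPM, Xist stood at 28.5, 49.0 and 42.1 without and 27.3, 12.8 and 32.4 with Y-linked RNA. Among other kept cells without Y-linked RNA a Xist UMI was found in 87.3%, 76.6% and 76.7%, and Xist stood at 544, 567 and 537 CPM there, although germ cells were the deeper class. Other kept cells with Y-linked RNA gave 17.6%, 14.8% and 14.1%.

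**Figure D5:**
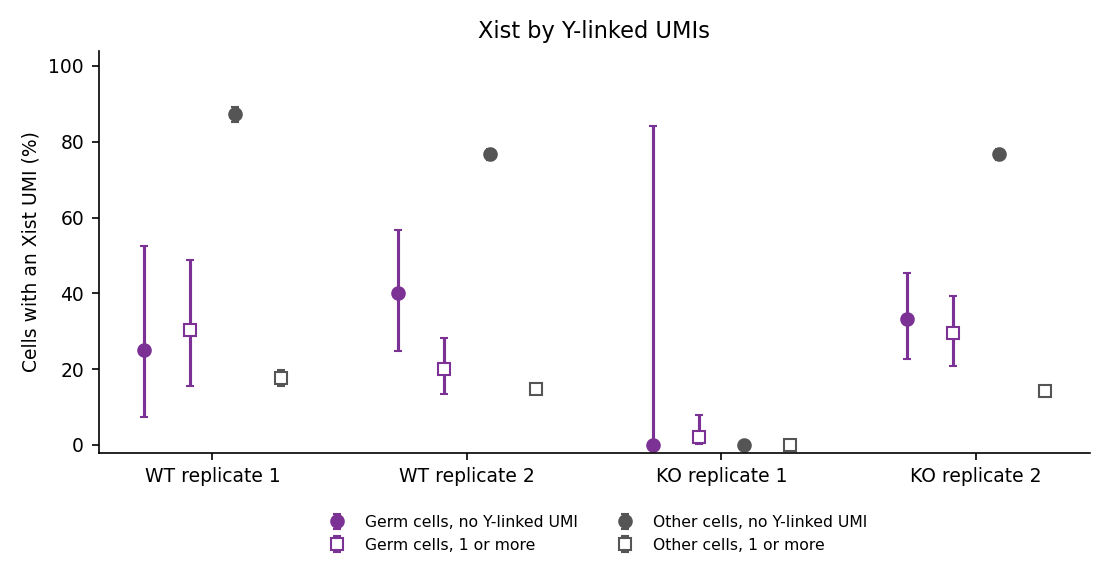
Share of cells with a Xist UMI by library, with exact 95% binomial intervals, for germ cells (purple) and other kept cells (grey), without (filled circles) and with (open squares) a Y-linked UMI. In 3 libraries the filled grey points lie at 76.6% to 87.3% and the filled purple points at 25% to 40%; in KO replicate 1 all points are near 0, with a wide interval for its 2 germ cells without a Y-linked UMI.

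X-linked RNA was slightly higher in germ cells without Y-linked RNA. Its share of X-linked and autosomal UMIs was 3.27%, 3.21% and 3.35% in germ cells without, and 3.08%, 2.98% and 3.07% in germ cells with, a Y-linked UMI in the same 3 libraries. In other kept cells the shares were 4.07%, 4.43% and 4.46% without and 4.12%, 4.41% and 4.42% with. Per gene at 50 CPM or more, Xist and Tsix left out, the median log2 ratio of cells without to cells with Y-linked RNA was 0.15, 0.12 and 0.16 over 84 to 92 X-linked genes in germ cells. Over autosomal genes it was 0.02, 0.00 and -0.01, and over X-linked genes of other kept cells at 10000 UMIs or more it was 0.00, 0.00 and 0.01. The direction was the same in 3 of 3 libraries; with 3 pairs an exact paired test cannot go below 0.25, and none was run. Genes share cells and are not replicates here.

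F630028O10Rik, the transcript that spans the miR-223 position (chrX:96239926-96243636), was almost absent from germ cells. It had 0, 1, 1 and 25 UMIs, and 24 of the 25 in KO replicate 2 were in 1 cell. That library's platelet factor RNA, Pf4, was concentrated likewise, with 1316 of 1379 UMIs in 1 cell. Other kept cells had 0.125, 0.364, 2.58 and 4.49 CPM, higher in both KO libraries (3.79, SE 0.62, adjusted p = 0.986 by edgeR). The mature microRNA was not measured, so these values do not check the genotype labels. Of 14 described miR-223 targets, a list taken from general knowledge, 12 were tested and none was called; 6 estimates lay above 0 and the median was 0.04, against 0.01 over all genes. Parp1, the DNA repair enzyme of that list, was the only tested one at least 2-fold higher in germ cells in every library, at 506, 595, 556 and 569.8 CPM against 126 to 147, and it did not pass between genotypes (0.09, SE 0.15, adjusted p = 0.999).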

How the data were processed

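The deposited matrices hold unnormalised UMI counts for each gene in each barcode that passed cell calling, made with Cell Ranger 3.1.0 per the file headers. The submitters' processing notes also list Seurat 4, whose use is not described. The build and gene annotation of the files are not stated. Positions come from GENCODE M21 (GRCm38), matched by identifier for 31011 of 31053 genes.

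Kept cells had 1000 or more detected genes and less than 10% of UMIs from mitochondrial genes, and no doublet caller was run. UMIs were summed per library over germ cells and over other kept cells. KO was tested against WT, and the interaction of genotype with class (library as block), with edgeR 4.0.16 in R 4.3.3 (filterByExpr, TMM, robust quasi-likelihood, Benjamini-Hochberg, threshold 0.05). The procedure was tested on simulated counts. Shares use exact Clopper-Pearson intervals (scipy 1.17.1) and exact permutation over libraries.

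Germ cell members and gene lists were chosen with earlier results of these data known. Genes named are all called genes, the 20 highest and 10 lowest against other cells (1 of the former is not reported here), up to 6 per list, and any others chosen after their values were seen. The alternatives were other scaling, filters, rule limits, DESeq2 1.42.0, thinning, a replicate block and leaving out each library.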

Additional observations from a re-analysis of the deposited data

Results flagged for a closer look

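Cgnl1 and Hba-a1 differed in their genotype effect between germ cells and other kept cells of the same libraries (edgeR interaction). For Cgnl1 the difference was -1.88 (log2, SE 0.21), and both KO libraries lay below both WT libraries in germ cells, at 7.79 and 12.1 against 38.4 and 44.7 CPM. Cgnl1 was detected in 79.6%, 70.7%, 21.7% and 24.1% of germ cells in the 4 libraries, in the order used above, at median depths of 57929, 42349.5, 36472 and 42717 UMIs. For Hba-a1 the difference was 2.78 (SE 0.24), resting on 1 cell in each KO library.

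Germ cells also appeared among barcodes outside the filters. Of 10685 removed barcodes 27 (0.253%) held at least 3 rule genes: 8, 11, 2 and 6 in the libraries in the same order. Of these 24 were at or over the mitochondrial limit and 4 under the gene minimum, 1 on both counts. They enter no comparison.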

How the results depend on the processing

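The 9 calls of KO against WT became 34 without the filter on low counts, 0 to 90 when 1 library at a time was left out, 16 without the cells of high endothelial RNA, 16 without those of high endothelial or blood RNA and 5 in cells with a Y-linked UMI only; the last 3 settings were chosen after seeing the data. With the replicate number as a block 7 genes were called, 6 of them among the 9. Without germ cells holding 3 or more of 5 endothelial genes, a planned setting, 6 genes were called, 5 of them among the 9. Fam81a, Npw, Gm48170 and Ide lost their call there, with 7 germ cells left in WT replicate 1. In germ cells the deviations of WT and KO replicate 1 from their group means correlated at -0.0756 over 10874 genes. This does not settle whether libraries of the same number share a batch. In other kept cells the erythroid list summed to 9723, 1205, 9182 and 1656 CPM, which followed the replicate number. So did further lists there, among them mesenchymal genes at 246, 56.8, 254 and 73.3 CPM and S phase genes at 2065, 1687, 2162 and 1728. Glycolysis genes, at 6638, 5410, 7081 and 5752 CPM, did too. Not every list did: the histone modification list had 621, 689, 670 and 651 CPM. The lists named here are examples, and what this order reflects was not tested. DESeq2 called 9 genes, 8 shared. The 2 interaction calls became 35 without the filter, 27 to 132 with 1 library left out and 1 against other cells with endothelial genes, where Hba-a1 was lost. The Hba-a2 interaction turned to -0.12 without cells of high endothelial or blood RNA. Of the 9 genes none changed direction in any of the 14 alternatives, and all lost their call without WT replicate 2.

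Genes higher in germ cells numbered 418 at 4-fold and 401 at 50 CPM in place of 1079, and lower genes 710 and 669 in place of 1667. The share of germ cells kept its direction in all alternatives run, from 0.00896 to 0.789 percentage points higher in KO. With 49 germ cells in WT replicate 1, genes under about 10 CPM rest on few UMIs there.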
